A study of Mus musculus with 38 samples.

Results

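The T cell receptor complex and its nearest signalling partners were followed through 10 genes: Cd3d, Cd3e, Cd3g, Cd247, Zap70, Cd2, Cd6, Cd28, Trat1 and Cd8b1. Every probe annotated to one of these genes was taken, which gave 15 probes of the 14836 probes with a single gene name, and 10 genes of the 9890 genes tested. Cd3e, Zap70 and Cd8b1 had 2 probes each, Cd6 had 3, and the other 6 genes had 1. RNA of whole mouse tissue had been hybridised to 38 Illumina bead arrays. The groups were tissue around B16 melanoma of the line labelled B16-shTGFb at day 14 (5 arrays) and day 4 (6 arrays) after inoculation, of B16-shVEGF at day 14 (6 arrays) and day 4 (5 arrays), of B16-WT at day 14 (5 arrays) and day 4 (4 arrays), and control tissue (7 arrays). By convention the prefix sh stands for a short hairpin RNA, here against TGF-beta or VEGF. All mice were C57BL/6 of 8 weeks of age. The labels say neither what the control tissue was, nor whether a line was a single clone, nor whether each array stands for its own animal. P-values therefore cover the spread among arrays, which may be technical.

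The T cell receptor has no signalling domain of its own. It is carried to the surface with the CD3 gamma, delta and epsilon chains and the zeta chain (Cd247), whose tails are phosphorylated when the receptor binds a peptide on an MHC molecule, and the kinase ZAP-70 then docks on them. The co-receptor CD8, of which Cd8b1 encodes the beta chain, binds MHC class I beside the receptor on cytotoxic T cells. CD2, CD6 and CD28 are further surface receptors of T cells, and Trat1 encodes an adaptor that sits in the membrane with the receptor. In a whole-tissue sample, fewer T cells and less RNA per T cell cannot be told apart.

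The start regions of the CD3 genes are shown because these genes lie side by side on chromosome 9, in the order Cd3g, Cd3d, Cd3e, and moved together over the arrays, and that of Trat1 because Trat1 did not move with them. Each window runs from 250 bases before to 50 bases after the RefSeq start on assembly GRCm38.p6. It is written 5′ to 3′ on the strand of the gene, with capitals at each CAGGTG on either strand (CACCTG is the same site read from the other strand). CAGGTG is an E-box, a site bound by basic helix-loop-helix factors.
Cd3g (chr9:44980382-44980681, minus strand): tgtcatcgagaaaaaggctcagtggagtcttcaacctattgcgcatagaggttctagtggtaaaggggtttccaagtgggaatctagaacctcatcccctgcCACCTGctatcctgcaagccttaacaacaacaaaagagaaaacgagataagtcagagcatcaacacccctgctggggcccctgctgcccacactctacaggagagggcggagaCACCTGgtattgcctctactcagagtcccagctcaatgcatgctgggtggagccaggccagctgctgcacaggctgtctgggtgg
Cd3d (chr9:44981536-44981835, plus strand): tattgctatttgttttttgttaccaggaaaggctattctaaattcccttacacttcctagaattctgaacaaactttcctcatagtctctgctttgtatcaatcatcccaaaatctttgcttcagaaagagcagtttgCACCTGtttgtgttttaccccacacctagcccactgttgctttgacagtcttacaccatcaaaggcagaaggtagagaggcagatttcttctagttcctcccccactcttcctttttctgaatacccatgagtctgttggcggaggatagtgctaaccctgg
Cd3e (chr9:45009562-45009861, minus strand): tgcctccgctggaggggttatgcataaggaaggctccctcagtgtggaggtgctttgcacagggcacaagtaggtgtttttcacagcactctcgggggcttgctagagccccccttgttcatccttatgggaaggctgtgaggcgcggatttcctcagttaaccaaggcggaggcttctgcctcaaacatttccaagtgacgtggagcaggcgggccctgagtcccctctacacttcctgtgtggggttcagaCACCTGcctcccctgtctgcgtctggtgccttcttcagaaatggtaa
Trat1 (chr16:48772013-48772312, minus strand): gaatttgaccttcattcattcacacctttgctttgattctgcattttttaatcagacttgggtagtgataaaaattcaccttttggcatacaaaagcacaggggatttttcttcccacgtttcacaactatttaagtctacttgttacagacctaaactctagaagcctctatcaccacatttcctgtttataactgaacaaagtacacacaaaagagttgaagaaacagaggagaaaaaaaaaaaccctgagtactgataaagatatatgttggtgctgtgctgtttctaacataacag
Cd3g and Cd3d are read in opposite directions from starts 1355 bases apart. RefSeq windows were found for 6 of the 10 genes, 8 windows in all, and those of Cd2, Cd6, Cd28 and Cd8b1 were not used here. CAGGTG stood in 6 of the 8 windows and in 5 of the 6 genes, and in 20.2% of all 32851 mouse windows of 300 bases. The Trat1 window had none. TATAAA, the core of the TATA box, occurred once in the Trat1 window and in 13.6% of all windows. GGAA (core of ETS sites), CTTTGA (core of TCF and LEF sites) and TGTGGT (core of RUNX sites) were searched likewise on both strands and stood in 7, 4 and 2 of the 8 windows, and in 96%, 16% and 16.8% of all windows. None of these matches overlapped a CAGGTG. A match is a description of these letters only.

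All levels below are log2 intensities, background-corrected and quantile-normalized, and a probe counted as detected at a detection p under 0.05 against the negative controls of its array. Between 16519 and 22897 probes were detected per array. Nothing in the tissue was sorted, and 4 arrays stood apart in ways that touch every result below. On WT day 4 array 4 and WT day 14 arrays 2 and 5, called host-poor here, the macrophage, fibroblast and keratinocyte lists had means of at most 5.78, against at least 6.89 on every other array, while the pigment cell list had 12.33 to 12.52. On shTGFb day 4 array 2 the pigment cell list had its lowest mean of the 38 arrays, 5.38. Pigment cell genes were also high on most control arrays, with list means between 5.76 and 12.46. Of the genes that the line labels point to, Tgfb1 averaged 9.12 ± 0.65 (SD, n = 6) at shTGFb day 4 and 8.79 ± 0.15 (SD, n = 4) at WT day 4. Vegfa averaged 9.93 ± 0.53 (SD, n = 6) at shVEGF day 14 and 10.22 ± 0.82 (SD, n = 5) at WT day 14. On the other days Tgfb1 averaged 9.38 ± 0.56 (SD, n = 5) at shTGFb day 14 and 8.87 ± 0.78 (SD, n = 5) at WT day 14, and Vegfa 10.03 ± 0.43 (SD, n = 5) at shVEGF day 4 and 10.07 ± 0.25 (SD, n = 4) at WT day 4. The arrays of all 4 pairs of groups overlapped. Mean Tgfb1 was higher in the shTGFb groups than in WT, and mean Vegfa was lower in the shVEGF groups. Whether either gene was lowered in the tumor cells was not tested.

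Nearly all probes of the T cell genes had their highest value on a single array, shTGFb day 4 array 2, and nearly all had their lowest on a host-poor array. The first held for 14 of the 15 probes, or 9 of the 10 genes by their brightest probe, against 9.23% of all genes tested (913 of 9890). The second held for 13 of the 15, or 9 of the 10 genes, against 28.2% of all genes (2786 of 9890). The genes and these arrays were chosen with earlier results of these data known, so the counts are a description and not a test. On the 3 host-poor arrays not one of these probes was detected, except the brighter probe of Cd8b1, which was detected on all 38 arrays. Between those extremes, the CD3 chains were detected on each of the other 35 arrays, control tissue included.

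**Figure D1:**
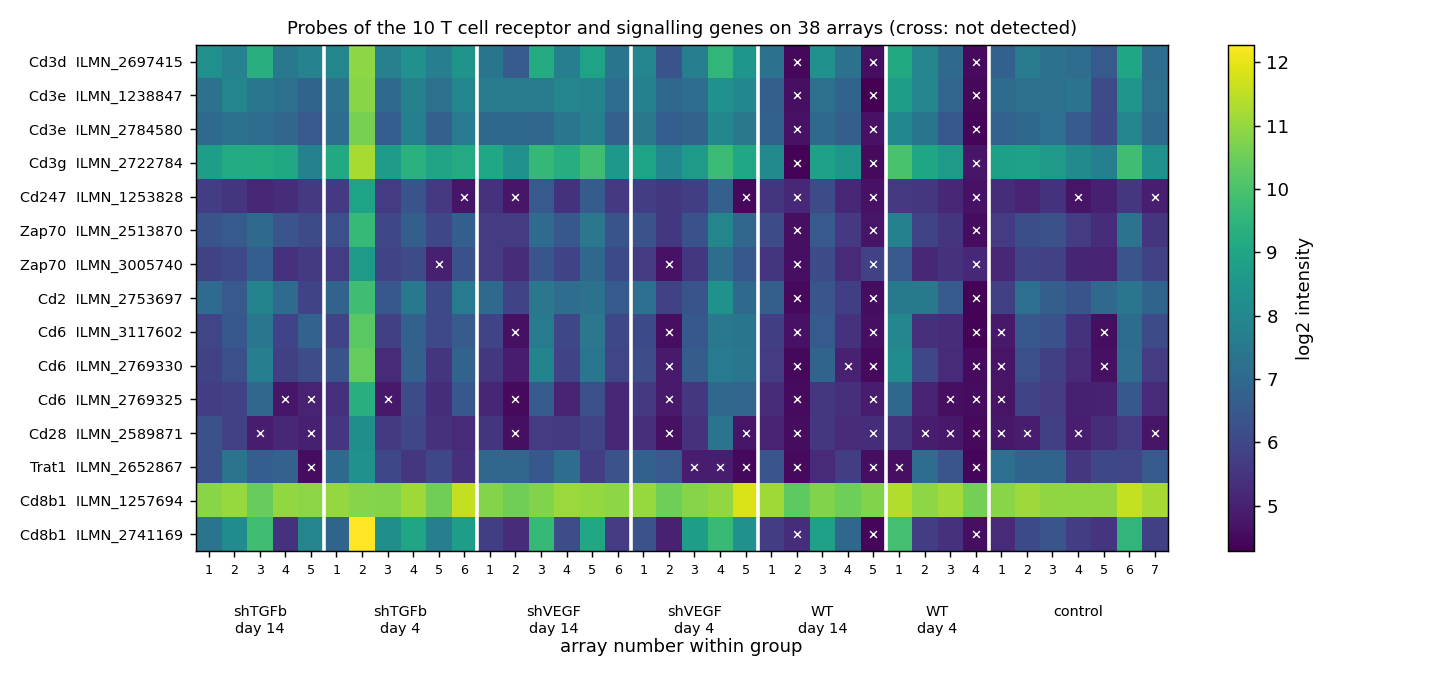
Log2 intensity (colour) of the 15 probes of the 10 genes (rows) on each of 38 arrays (columns, numbered within their group), with a cross where the probe was not detected. The column of shTGFb day 4 array 2 is brightest in 14 rows, the host-poor columns hold the lowest value in 13 rows, and the row of Cd8b1 probe ILMN_1257694 stays between 10.29 and 11.87 throughout.

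Cd3g, the CD3 gamma chain, was the brightest of the CD3 probes, though levels of different probes cannot be ranked as transcript levels. Its log2 intensity was 8.77, 9.17, 9.19, 9.08 and 7.78 on the shTGFb day 14 arrays and ranged from 8.69 through a median of 9.15 to 11.25 at shTGFb day 4. It ranged from 8.33 through a median of 9.18 to 9.81 at shVEGF day 14 and was 8.91, 8.00, 8.57, 9.73 and 9.04 at shVEGF day 4. With WT tumors it was 8.12, 4.36, 8.85, 8.53 and 4.49 at day 14 and 9.97, 9.01, 8.63 and 4.75 at day 4, against a range from 7.75 through a median of 8.56 to 9.82 in control tissue. The low values are the host-poor arrays, and without them and shTGFb day 4 array 2 all groups overlapped within 7.75 to 9.97.

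Cd3d and Cd3e, the delta and epsilon chains, ranked the arrays in a similar but not identical order, with Spearman correlations of 0.78 and 0.76 with the other CD3 chains over 34 arrays (without shTGFb day 4 array 2 and the host-poor arrays). Cd3d stood at 10.92 on shTGFb day 4 array 2, which is 2.61-fold above the next array (9.54 on shVEGF day 4 array 4), and at 4.45 to 4.58 on the host-poor arrays. The brighter Cd3e probe stood at 10.87, 4.36-fold above the next array (8.74 on WT day 4 array 1). The second Cd3e probe gave 10.64 and 6.17-fold, so both probes of the gene show the same single array. Elsewhere Cd3e was narrow in some groups, with 7.61 ± 0.28 (SD, n = 6) at shVEGF day 14 and 7.34 ± 0.40 (SD, n = 5) at shTGFb day 14, against 7.24 ± 0.67 (SD, n = 7) in control tissue.

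Cd247, the zeta chain, was dim and was detected on 30 of 38 arrays. It had 8.93 on shTGFb day 4 array 2 and at most 6.74 on any other array, with undetected arrays at shTGFb day 4 (1), shVEGF day 14 (1), shVEGF day 4 (1) and in control tissue (2) besides the host-poor ones. Zap70, the kinase that docks on the phosphorylated CD3 and zeta tails, had 9.65 on shTGFb day 4 array 2 and 7.91 on the next array by its brighter probe, and 8.64 and 7.17 by the other. The kinase tracked the CD3 chains more closely than Cd247 did. Correlations with the mean of Cd3d, Cd3e and Cd3g were taken over the 34 arrays that exclude shTGFb day 4 array 2 and the host-poor arrays. The brighter Zap70 probe had a Spearman correlation of 0.87 and the other 0.79, while Cd247 had 0.40. These arrays share tissue composition and normalization, so the correlations describe them and are not tested.

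The surface receptors gave the same picture with different strength. Cd2, an adhesion receptor of T and NK cells, had 9.84 on shTGFb day 4 array 2, against 8.40 on the next array and 4.35 to 4.56 on the host-poor arrays. Cd6, a receptor for the adhesion molecule ALCAM, had 10.23, 10.40 and 9.31 there by its 3 probes, 4.70 to 5.11-fold above the next array. Its 3 probes correlated with each other at 0.85 to 0.92 (Spearman, 34 arrays). Cd28, the receptor for the B7 costimulators, was the least often detected gene of the set, on 24 of 38 arrays. It was detected on 3 of 5 arrays at shTGFb day 14, 6 of 6 at shTGFb day 4, 5 of 6 at shVEGF day 14, 3 of 5 at shVEGF day 4, 3 of 5 at WT day 14, 1 of 4 at WT day 4 and 3 of 7 in control tissue. Its highest values were 8.26 on shTGFb day 4 array 2 and 7.36 on shVEGF day 4 array 4.

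Cd8b1 departed from the other genes by its brighter probe and not by its second one. Probe ILMN_1257694, which has the higher mean and therefore stood for the gene in the table of all genes, was detected on 38 of 38 arrays and varied little, with an SD of 0.32 around a mean of 10.93. Probe ILMN_2741169 had a mean of 7.17 and an SD of 1.89, the widest of the 15 probes. Both are annotated to the same transcript accession.

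By the brighter probe the groups lay on one level. Its values were 10.86, 11.03, 10.42, 10.97 and 10.88 at shTGFb day 14 and ranged from 10.53 through a median of 10.92 to 11.53 at shTGFb day 4. They ranged from 10.54 through a median of 10.86 to 11.09 at shVEGF day 14 and were 11.05, 10.52, 10.84, 10.98 and 11.87 at shVEGF day 4. With WT tumors they were 11.15, 10.29, 10.78, 10.52 and 10.77 at day 14 and 11.35, 10.93, 11.18 and 10.60 at day 4, against a range from 10.84 through a median of 10.95 to 11.56 in control tissue. All groups overlapped. On shTGFb day 4 array 2 it was 10.83, rank 26 of 38 from the top. On the host-poor WT day 4 array 4 and WT day 14 arrays 2 and 5, where every CD3 probe was undetected, it was 10.60, 10.29 and 10.77.

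By the second probe Cd8b1 ran with the CD3 chains, over a wider range than theirs. It was 7.35, 8.15, 9.84, 5.42 and 7.91 at shTGFb day 14 and ranged from 6.87 through a median of 8.50 to 12.28 at shTGFb day 4. It ranged from 5.28 through a median of 5.97 to 9.64 at shVEGF day 14 and was 6.34, 5.00, 8.74, 9.70 and 8.33 at shVEGF day 4. With WT tumors it was 5.73, 5.33, 8.86, 6.99 and 4.42 at day 14 and 9.89, 5.72, 5.44 and 4.57 at day 4, against a range from 5.25 through a median of 5.79 to 9.56 in control tissue. The groups overlapped. The lowest value was 5.42 or less in every group but shTGFb day 4, where it was 6.87, and the highest was 8.86 or more in every group. The 12.28 of shTGFb day 4 array 2 was 5.25-fold above the next array and the only value at which this probe lay above the brighter one. Undetected were only the 3 host-poor arrays.

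The raw signals show the same contrast before any correction. They spanned 855 to 5300 units for the brighter probe, with 1526 on shTGFb day 4 array 2, and 108 to 3739 for the second, with 3739 on that array. In the log2 table that the authors deposited the spans were 10.41 to 11.91 and 6.85 to 12.31. The brighter and second probes of Cd8b1 correlated with each other at 0.13 (Spearman, 34 arrays), against 0.85 to 0.92 for every other pair of probes of one of these genes (Cd3e 0.88, Zap70 0.87, Cd6 0.85 to 0.92). With the mean of the CD3 chains the brighter probe had a Spearman correlation of 0.31 and a Pearson correlation of 0.37, and the second had 0.78 and 0.78, over the same 34 arrays. Which sequence each probe carries was not used here.

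**Figure D2:**
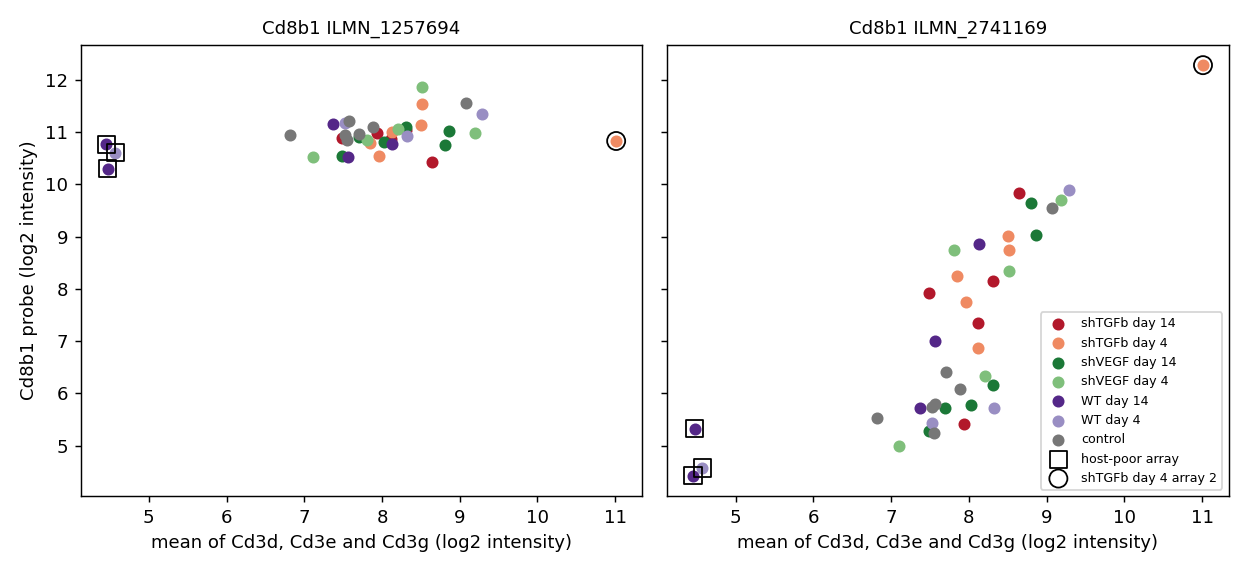
Log2 intensity of each Cd8b1 probe (vertical) against the mean log2 intensity of Cd3d, Cd3e and Cd3g (horizontal), 1 point per array, coloured by group, with shTGFb day 4 array 2 circled and the 3 host-poor arrays boxed. ILMN_1257694 stays between 10.29 and 11.87 at every CD3 level, while ILMN_2741169 spans 4.42 to 12.28 and is highest where CD3 is highest.

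The genes that ran most nearly parallel to each probe also differed. With the brighter probe they were Atmin (Spearman 0.71 over 38 arrays), Slc45a4 (0.70), Ubfd1 (0.69), Tox (0.69) and Bco2 (0.67). Leaving out shTGFb day 4 array 2 gave Tox (0.75), Slc45a4 (0.71), Atmin (0.71), Ero1b (0.70) and Lpxn (0.70). Over the 34 arrays none of the first 5 stayed on the list. It was then Trmt1l (0.77), Lca5 (0.77), Zcchc8 (0.74), Dpysl2 (0.74) and Vrk1 (0.74), so it depends on the arrays left out. With the second probe, a comparison added after its values were seen, they were Nkg7 (0.92), a granule protein gene of NK and cytotoxic T cells, Sh2d2a (0.91), a T cell adaptor, Parvg (0.89), Tnf (0.88) and Calhm6 (0.87). Without shTGFb day 4 array 2 they were Nkg7 (0.93), Fcgr4 (0.91), an Fc receptor gene of myeloid cells, Hk3 (0.91), Sh2d2a (0.90) and Ccl4 (0.89). The 34 arrays gave Ccl5 (0.94), Nkg7 (0.91), Fcgr4 (0.89), Gimap7 (0.89) and Hk3 (0.88), so this list also depends on the arrays left out. The mean of the other 9 genes ran most nearly parallel to Ctsw (0.93), a cathepsin of cytotoxic lymphocytes, Parvg (0.92), Il10ra (0.91), Cd27 (0.91), Cd52 (0.89), Sh2d2a (0.89), Rac2 (0.88), Parp14 (0.87), Hcst (0.85) and Ptpn18 (0.84). Without shTGFb day 4 array 2, Nkg7 (0.84) and Slc15a3 (0.84) took the places of Hcst and Ptpn18. On the 34 arrays Samd3 (0.81) took the place of Hcst. Parvg and Sh2d2a are on the 38-array lists of both the second Cd8b1 probe and this mean.

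Trat1 was the other gene that did not follow the CD3 chains. It was 6.23, 7.37, 6.67, 6.81 and 4.54 at shTGFb day 14 and ranged from 5.39 through a median of 6.00 to 8.40 at shTGFb day 4. It ranged from 5.72 through a median of 6.69 to 7.18 at shVEGF day 14 and was 6.76, 6.51, 4.88, 4.92 and 4.46 at shVEGF day 4. With WT tumors it was 6.39, 4.50, 5.23, 5.72 and 4.58 at day 14 and 4.61, 7.12, 6.39 and 4.41 at day 4, against a range from 5.55 through a median of 6.55 to 7.21 in control tissue. Every control array had it, and 8 tumor arrays did not.

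Of those 8 arrays 5 were not host-poor, and the CD3 genes were well detected on them. WT day 4 array 1 is the clearest, with Trat1 at 4.61 beside Cd3g at 9.97 and the second Cd8b1 probe at 9.89, both the highest values of their probe outside shTGFb day 4 array 2. On shVEGF day 4 arrays 3, 4 and 5 Trat1 was 4.88, 4.92 and 4.46 beside Cd3g at 8.57, 9.73 and 9.04, and on shTGFb day 14 array 5 it was 4.54 beside 7.78. The keratinocyte list had means of 11.48 on WT day 4 array 1, 11.80, 6.89 and 9.61 on shVEGF day 4 arrays 3, 4 and 5, and 12.25 on shTGFb day 14 array 5, ranks 6, 8, 4, 5 and 10 from the lowest of 38. Over the 34 arrays Trat1 had a Spearman correlation of -0.16 with the CD3 mean and 0.75 with the keratinocyte list, and the second Cd8b1 probe had 0.78 and -0.78. The CD3 mean itself had -0.50 with the keratinocyte list. Trat1 also had 0.64 with the fibroblast list, 0.60 with T cell lineage factors, 0.56 with signalling and co-receptor genes and 0.52 with the macrophage list. It had -0.64 with the pigment cell list, and -0.21 to 0.14 with the NK, B cell and lymphoid tissue lists. The part of tissue composition in these values was not tested. In a comparison added after the values were seen, the genes that ran most nearly parallel to Trat1 over 38 arrays were H2-M2 (0.91), Bcl11b (0.86), Smarca2 (0.86), Kmt2c (0.86) and Rasgrp1 (0.86). Without shTGFb day 4 array 2 they were H2-M2 (0.91), Slc24a3 (0.89), Irx3 (0.89), Lamb3 (0.89), a laminin chain of epithelial basement membrane, and Col7a1 (0.89), the collagen of anchoring fibrils in skin. The 34 arrays gave the same genes, at 0.86 to 0.88.

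**Figure D3:**
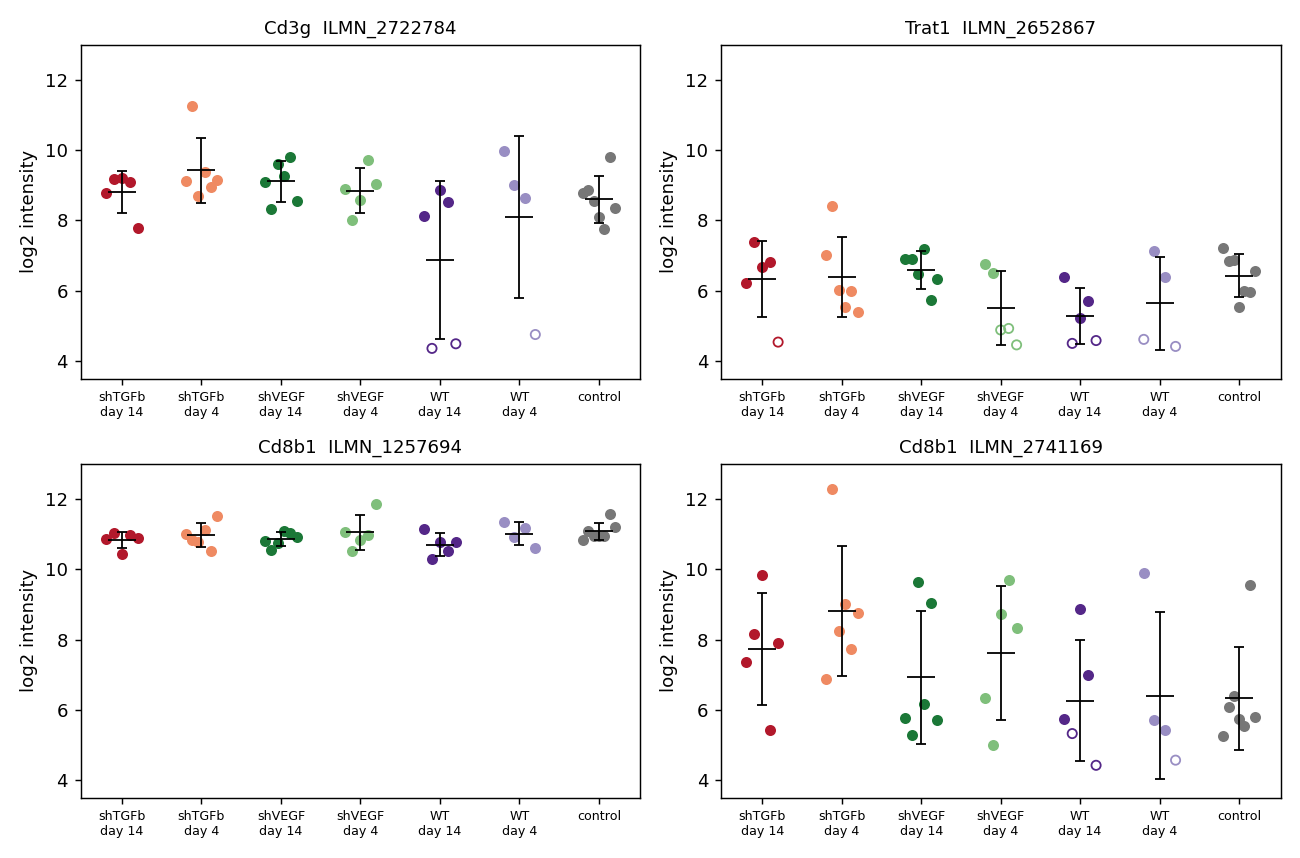
Log2 intensity of Cd3g, Trat1 and both Cd8b1 probes by group, 1 point per array (open where not detected), with a bar at the mean and whiskers of 1 SD. Groups overlap in every panel. The second Cd8b1 probe reaches 12.28 on shTGFb day 4 array 2, and Cd3g drops to 4.36 to 4.75 on the host-poor WT arrays.

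None of the 10 genes differed between groups at an adjusted limma p under 0.05 in any of 13 comparisons. In each comparison 0 of 9890 genes passed (0%). By the same limma fit, at an unadjusted p under 0.05, 5 of the 10 passed for shVEGF day 14 against WT day 14 (25.8% of all genes passed), 4 for shTGFb day 14 against WT day 14 (14.2%), 4 for WT day 14 against control (25.1%), 2 for shTGFb day 4 against control (2.99%), 1 for shTGFb day 4 against WT day 4 (8.2%), and 0 in the other 8. In those 8 the share of all genes was 1.26% for shTGFb day 14, 1.08% for shVEGF day 4, 0.222% for shVEGF day 14 and 1.97% for WT day 4, each against control, 4.86%, 0.617% and 0.637% for day 14 against day 4 of shTGFb, shVEGF and WT, and 2.53% for shVEGF day 4 against WT day 4.

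Several CD3 differences between shVEGF or shTGFb tumors and WT tumors at day 14 exceeded 1 on the log2 scale and were smaller without the host-poor arrays. Cd3g averaged 9.11 ± 0.58 (SD, n = 6) at shVEGF day 14 and 6.87 ± 2.25 (SD, n = 5) at WT day 14, a log2 difference of 2.24 (SE 0.72, limma adjusted p = 0.140). Without the 3 host-poor arrays that difference was 0.61 (SE 0.46). The median difference of the 9 genes other than Cd8b1 was 1.30, and 0.37 without those arrays, against -0.04 and 0.05 over all genes. For shTGFb day 14 against WT day 14 it was 1.10, and 0.41 without them, with Cd3g at 1.93 (SE 0.76) and 0.30 (SE 0.48).

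Against control tissue the WT tumors had lower means of most T cell genes, and the median difference was above 0 without those arrays. For WT day 14 the median of the 9 genes was -0.96, with Cd3g at -1.73 (SE 0.70), Cd3e at -1.31 (SE 0.59), Cd2 at -1.18 (SE 0.55) and Trat1 at -1.14 (SE 0.53), and it was 0.08 without them. Those 4 genes stayed below control without the host-poor arrays, Cd3g at -0.10 (SE 0.45), Cd3e at -0.31 (SE 0.52), Cd2 at -0.48 (SE 0.55) and Trat1 at -0.65 (SE 0.60). For WT day 4 the median was -0.22, and 0.42 without them. The number of the 9 genes with a positive difference was 1 in both comparisons with all arrays. It was 5 at day 14 and 7 at day 4 without the host-poor arrays.

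At day 4 the shTGFb tumors had higher means of most T cell genes than control tissue, none past the adjusted threshold. Most of the differences were smaller without array 2 of that group. The 9 genes had a median of 0.86, with Cd3d at 1.17 (SE 0.66), Cd6 at 1.06 (SE 0.63), Cd247 at 1.00 (SE 0.42), Cd28 at 0.86 (SE 0.39) and Trat1 at -0.03 (SE 0.50). Without shTGFb day 4 array 2 the median was 0.39, while Trat1 moved further below control, to -0.44. The brighter Cd8b1 probe gave -0.11 (SE 0.19) and the second 2.48 (SE 0.96), or 1.78 (SE 0.96) without that array. The limma adjusted p of the second probe was 1.00 over 14836 probes. Its mean in the group was 8.81 ± 1.86 (SD, n = 6), or 8.12 ± 0.85 (SD, n = 5) without array 2, against 6.34 ± 1.47 (SD, n = 7) in control tissue. Control array 6 overlapped with the group at 9.56, and the other 6 control arrays were at most 6.40, below the lowest shTGFb day 4 array at 6.87.

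Set against WT tumors of the same day, shTGFb day 4 had a median of 1.01 for the 9 genes, 0.44 without shTGFb day 4 array 2 and -0.05 without the host-poor arrays as well. The second Cd8b1 probe gave 2.41 (SE 1.12), 1.72 (SE 1.10) and 1.11 (SE 1.16) in the same order. At day 14 against day 4 of the shTGFb line the 9 genes had a median of -0.49, and -0.00 without array 2. These comparisons share groups, so their values are not independent of each other.

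**Figure D4:**
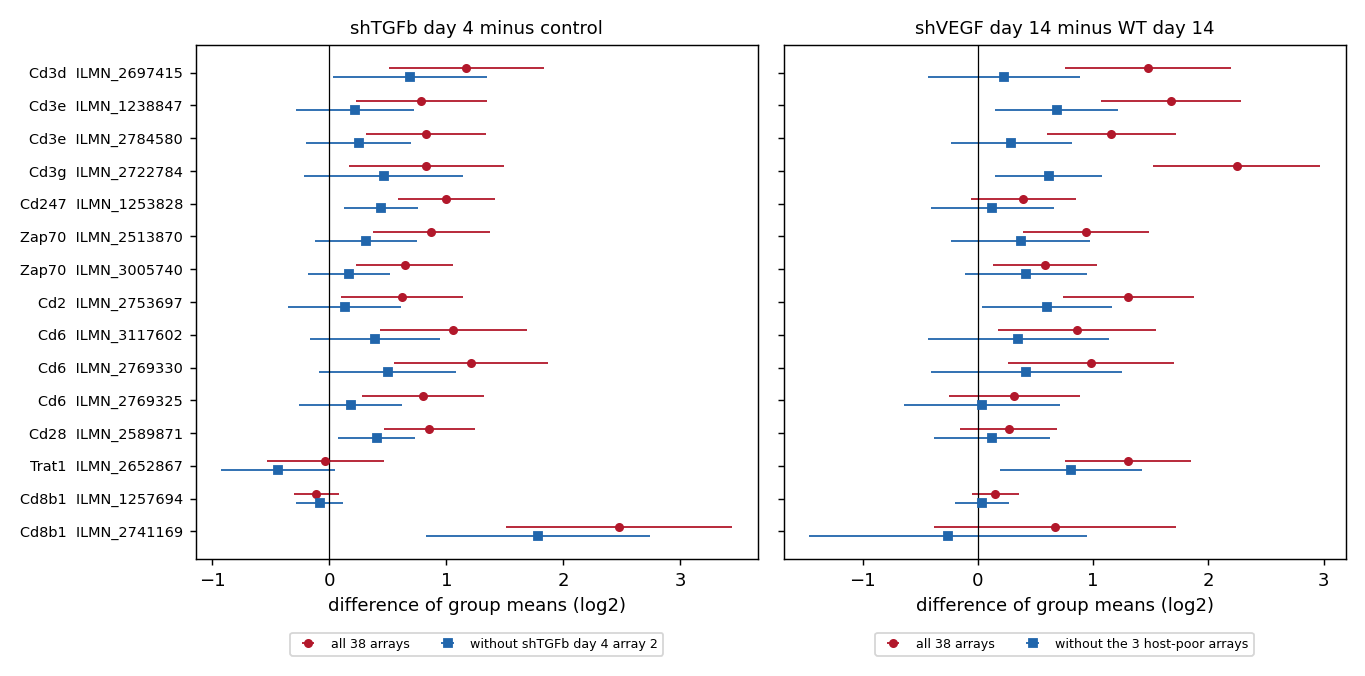
Fitted difference of group means (log2, whiskers of 1 SE) for each of the 15 probes in shTGFb day 4 minus control and in shVEGF day 14 minus WT day 14, with all arrays (circles) and without the named arrays (squares). Leaving out shTGFb day 4 array 2 brings most probes nearer 0, with the second Cd8b1 probe at 1.78, and leaving out the host-poor arrays takes Cd3g down to 0.61.

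Between shVEGF tumors and control tissue none of the 10 genes passed either threshold. The 9 genes had a median of 0.43 at day 14 and 0.40 at day 4, with Trat1 at 0.16 (SE 0.50) and -0.92 (SE 0.53). Between the days of this line the 9 genes had a median of -0.09, and Trat1, detected on 6 of 6 arrays at day 14 and 2 of 5 at day 4, had the one larger value, 1.08 (SE 0.55, limma adjusted p = 1.00). A change from day 4 to day 14 in the difference between the shTGFb or shVEGF line and WT was tested as an interaction. This was done for all 10 genes in both lines. No gene of the 9890 was called, and the Cd3g values were 0.59 (SE 1.08) for shTGFb and 1.49 (SE 1.08) for shVEGF.

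Groups held a minor part of the variance of these probes. Some variance lies between 7 groups even where values are unrelated to them. Of the variance of Cd3g over 38 arrays 31.8% lay between groups, the largest share of the 15 probes. Over the 34 arrays Cd3g had 17.3%, below the brighter Cd3e probe at 21.6% and Trat1 at 19.7%. The smallest share over 38 arrays was 13.1%, for the dimmer Zap70 probe. The brighter Cd8b1 probe had 16.3% and 14.9%, and the second 23.1% and 13.9%. The median over all genes was 18.0% and 13.1%.

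Other T cell signalling and co-receptor genes were also highest on shTGFb day 4 array 2. Of 38 listed genes 18 were measured, which here means that they had a named probe. Of these, 17 had their highest value there, against 9.23% of all genes tested. Among them were Cd27 (11.33, next array 8.50), Il7r (10.86, next 8.61) and Ptprc (9.08, next 6.75), which encodes the phosphatase CD45 of all white blood cells. Prkcq was the exception, at 8.28, with 10.57 to 11.11 on the host-poor arrays. Csk, the inhibitory kinase with the highest mean of the list, had 12.00 there and 11.65 on the next array. In the 13 comparisons 0 of the 18 genes passed, and their median was 0.31 for shTGFb day 4 against control, or -0.06 without array 2. Lck, Lat and Cd8a are among the listed genes without a named probe, so Cd8b1 was not set beside the alpha chain of CD8. Whether the unnamed probes of the raw table include these genes was not examined.

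Markers of other lymphocytes moved with the T cell genes on that array. Cd79b, a chain of the B cell receptor, was 12.67 there and at most 8.31 elsewhere, and was the 1 measured gene of 12 listed B cell markers. The lymphoid tissue list had 3 of 10 genes measured, all highest there: Cxcl13 at 11.92 (next 7.79), Ltb at 10.10 (next 7.97) and Ccr7 at 8.12 (next 6.30). Of 5 measured NK and cytotoxic genes 2 were highest there, Klrd1 and Ctsw, while Prf1 (perforin) was 9.70, rank 12. Of 6 measured T cell lineage factors Lef1 (8.25) and Satb1 (12.83) were highest there, and Ets1, with the highest mean of its list, was 13.22, rank 5. Bcl11b was 11.10, also rank 5, Foxp3 was 9.41, rank 17, and Gata3 was 9.32, rank 29 and below the median of 10.52 on the other arrays. Foxp3 and Ets1 were highest on host-poor arrays, where no CD3 probe was detected, with 9.90 to 10.22 and 12.85 to 13.43. Lef1, Satb1, Gata3 and Bcl11b were at most 6.41 on those arrays. The macrophage list mean was 10.89, rank 14, that of fibroblasts 12.07, rank 21, and that of keratinocytes 12.98, rank 24. The part of any of these in the T cell values was not tested. In their lists Lyz1, Dcn, Krt14 and Dct had the highest means, and on shTGFb day 4 array 2 they were 14.45, 14.21, 14.56 and 6.50.

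**Figure D5:**
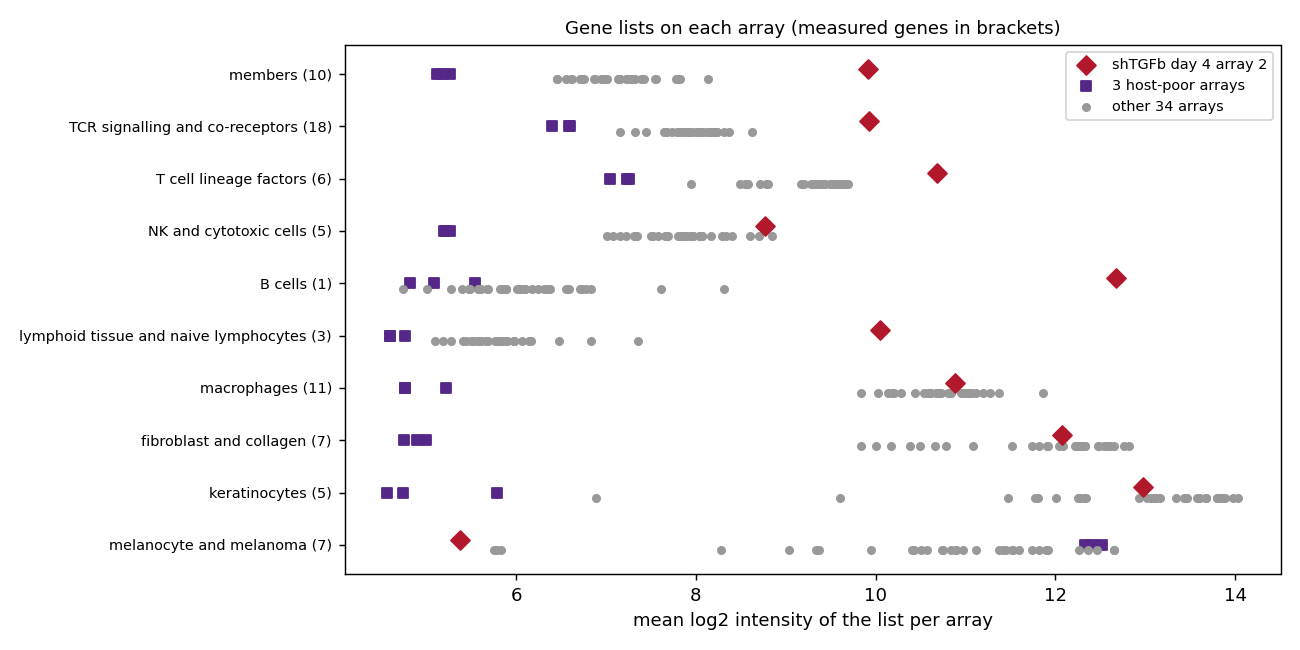
Mean log2 intensity of each gene list (rows, with the number of measured genes in brackets) on each array, with shTGFb day 4 array 2 as a diamond, the 3 host-poor arrays as squares and the other 34 arrays as grey points. The diamond lies at 9.92 for the 10 T cell genes and 12.67 for the B cell gene, above all other arrays, and at 5.38 for pigment cell genes, below them. The squares lie lowest for the T cell genes and near the top for pigment cell genes.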

How the data were processed

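Total RNA of 38 tissue samples was measured on Illumina bead arrays. The deposited table of raw values holds a signal intensity per probe and array on the linear scale, not normalized, with a detection p-value beside it. It holds 45272 probes. The authors' second deposited table holds log2 values of 16247 of these probes. It was tested to be the log2 of quantile-normalized signals with no background correction (largest difference 5.0e-14). BeadStudio and limma are named in the submitters' processing notes, and their versions are not given in the sources used here.

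Background was corrected by nec of limma 3.58.1 in R 4.3.3, a normal-exponential fit that used the detection p-values (offset 16), before quantile normalization and log2. Array annotation covered only the 16247 probes of the authors' log2 table. It named 14836 probes with 1 symbol (5 had several, 1406 none), of which 14830 matched the RefSeq table of GRCm38.p6. For each of 9890 genes the probe with the highest mean was used, and the 15 probes of the 10 genes were also tested among all named probes. A limma model with a mean for each of 7 groups over all 38 arrays gave 13 comparisons, adjusted by Benjamini-Hochberg over all genes. Precision is limited by the number of arrays.

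The genes, the lists and the arrays left out were chosen with earlier results of these data known. The genes named were the 10 genes with every probe, the member with the highest mean of each other list (none was called), and the 10 and 5 genes most like the mean of the 9 genes and Cd8b1. Other genes were named after their values were seen. No 2 arrays held identical values (highest Spearman correlation 0.937). The test was checked on simulated data with independent noise for each gene. These had no arrays that stood apart across many genes, so the check does not cover that feature of the data.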

Additional observations from a re-analysis of the deposited data

Results flagged for a closer look

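Within a group of 4 to 7 arrays, 14 of 105 combinations of a probe and a group held an array whose gap to its nearest neighbour was large for the range of the group (Dixon's 95% criterion). With independent probes chance would give about 1 in 20, or 5.25. Many of these probes correlate with each other, so the 4 on other arrays cannot be judged by that number. The other 10 were shTGFb day 4 array 2, the highest of its group: Cd3d at 10.92 (next array of the group 8.43), Cd3g at 11.25 (9.38), Cd3e at 10.87 and 10.64 by its 2 probes, Zap70 at 9.65 and 8.64 by its 2 probes, Cd28 at 8.26, and Cd6 at 10.23, 10.40 and 9.31 by its 3 probes. The probes share this array, which was already known to stand apart, so the 10 are a description and are not set against chance.

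Control array 6 stood above its group for Cd3d at 8.97, with the next control array at 7.58, and for the second Cd8b1 probe (ILMN_2741169) at 9.56, with the next at 6.40. On shTGFb day 14 array 3 the brighter Cd8b1 probe (ILMN_1257694) was the lowest of its group at 10.42, with the next at 10.86, and Cd6 probe ILMN_2769330 was the highest at 7.74, with the next at 6.24. On that array the 2 Cd8b1 probes thus lay at opposite ends of their group, the second probe being at 9.84.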

How the results depend on the processing

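The 130 differences of the 10 genes and the 13 of the second Cd8b1 probe were recomputed under 50 alternatives, 38 of which left out 1 array. Of 7137 values 195 changed sign, none of them a called value, and 8 passed an adjusted limma p of 0.05 where 0 had passed before. With array weights the genes called became 775 for shTGFb day 4 against control, 849 for shTGFb day 4 against WT day 4, 100 for shTGFb day 14 against shTGFb day 4 and 1 for shTGFb day 14 against control, and 2 of the 10 genes were called: Cd247 for shTGFb day 4 against control (0.76, limma adjusted p = 0.0297) and Cd28 for shTGFb day 4 against WT day 4 (0.83, limma adjusted p = 0.0447). The second Cd8b1 probe was then also called in these comparisons (2.21, limma adjusted p = 0.0176, and 2.53, limma adjusted p = 0.0169). Leaving out 1 array gave between 0 and 1443 called genes for WT day 14 against control (1443 without WT day 14 array 1, 1284 without array 4), 0 to 1636 for shVEGF day 14 against WT day 14 (1636 without WT day 14 array 4, 1238 without array 1), 0 to 5 for shTGFb day 4 against control (5 without shTGFb day 4 array 1), 0 to 1 for shTGFb day 14 against WT day 14, and 0 to 3 calls among the 10 genes. Those 3 came without WT day 14 array 4, Cd3g for WT day 14 against control (-2.14, limma adjusted p = 0.0491) and Cd3e (1.91, limma adjusted p = 0.0430) and Cd3g (2.66, limma adjusted p = 0.0315) for shVEGF day 14 against WT day 14. Without array 1 Cd3g was called in the last comparison (2.56, limma adjusted p = 0.0367). Arrays 1, 3 and 4 are those of WT day 14 that were not host-poor, so the group then rests on 2 host-poor and 2 other arrays, and the cause was not tested. Called genes stayed at 0 with the deposited log2 values, an offset of 50, equal medians, other detection filters, the mean of a gene's probes, every probe on its own, a fit of only the groups compared, and without the host-poor arrays, with or without shTGFb day 4 array 2. With the array number as a replicate block 0 genes were called and 5 of 143 values changed sign. The labels do not say whether equal numbers pair arrays. Over 102 pairs with one number in different groups the correlation of deviations ran from -0.81 to 0.75. Its median was 0.08, against -0.03 for pairs with different numbers. The headers name no slide, so the slide as a block was not run. Cd247, Cd28 and Trat1 lay near background on many arrays, which limits the precision of their differences.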
